A study of Homo sapiens with 16 samples.

Results

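The genes described here are markers and products of goblet cells and of the secretory lineage of the gut. They were chosen as a list of 10 symbols: ATOH1, SPDEF, AGR2, AGR3, MUC2, MUC13, TFF1, TFF3, REG4 and FCGBP. Matching by symbol found 9 of the 10 among the 54127 Ensembl identifiers listed in each count file. The identifier that the annotation gives FCGBP is not among them, and a row under an older identifier was not used. FCGBP is therefore not analysed here, which says nothing of its expression. The libraries came from HT55 and SW948, which are established cell lines from human colorectal cancers, both grown as adherent cultures. Each line received itraconazole, an azole antifungal, at 5 µM or the solvent alone (DMSO), and RNA was extracted after 6 days. Crossing line with treatment gave 4 groups of 4 biological replicates each. Each line derives from a single tumour and is kept in culture without the other cell types of the gut wall.

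Goblet cells make and store the mucus of the intestine. The transcription factor ATOH1 commits a progenitor to the secretory fate, SPDEF drives the maturation of goblet cells, and resident enzymes of the endoplasmic reticulum such as AGR2 help to fold the very large mucin proteins. Mucins are released together with small trefoil peptides and other mucus proteins, and many colorectal tumours keep part of this programme.

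In outline, AGR2 and TFF3 fell with itraconazole in both lines, AGR2 by 3.25 times in HT55 and 14.8 times in SW948 and TFF3 by 2.67 and 7.59 times, whereas MUC13 rose in both. Untreated SW948 held 15.7 times the AGR2 mRNA of untreated HT55, and HT55 held 3.04 times the TFF3 of SW948. The mean of MUC2 was 37.3 times higher in untreated SW948, but each HT55 library held only 2 to 6 MUC2 counts. ATOH1 and SPDEF, the upstream factors, were at or near 0 counts in every group. The values by library are plotted first.

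**Figure D1:**
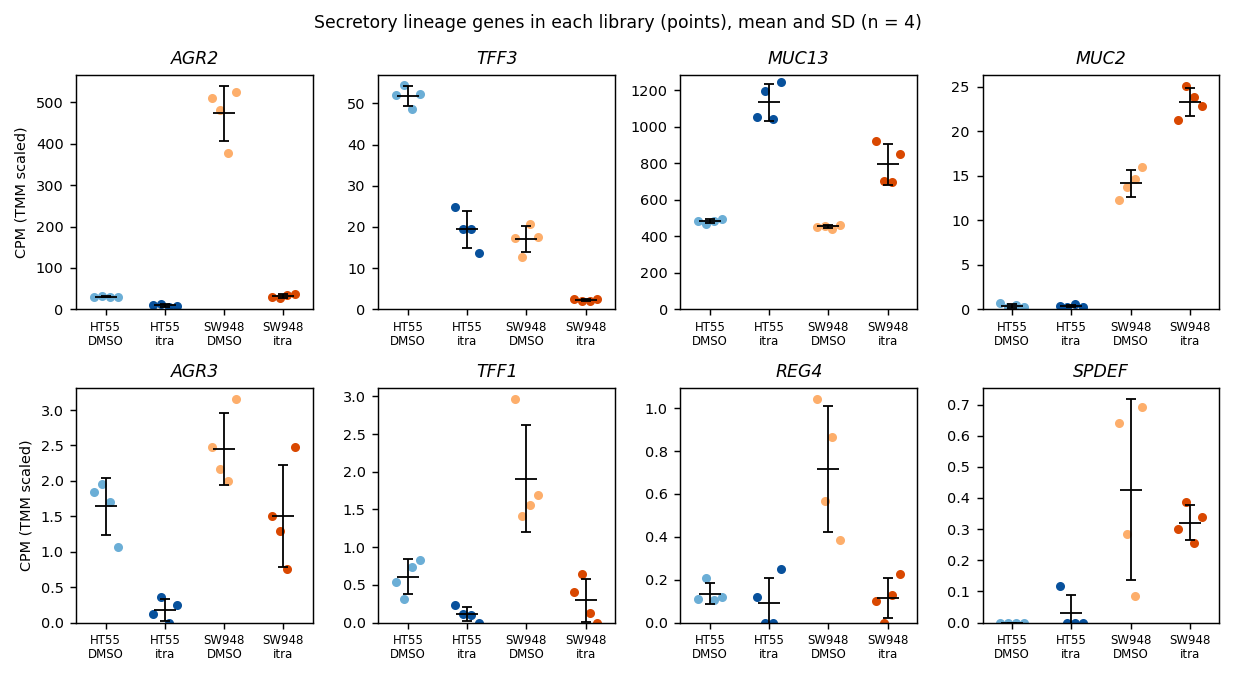
CPM (TMM scaled, linear axes from 0) of 8 of the 9 genes in each of the 16 libraries; points are libraries, horizontal bars the group mean and whiskers the SD (n = 4). The AGR2 points of untreated SW948, from 378 to 526 CPM, stand above those of the other 3 groups, and the MUC13 points of the itraconazole libraries stand above the DMSO points in both lines.

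Gene counts per library ran from 8269406 to 11110814. Levels are given as CPM, counts per 1000000 gene counts with TMM scaling over all 16 libraries, and differences as log2 fold changes from edgeR's quasi-likelihood test. A gene was called changed at a Benjamini-Hochberg adjusted p under 0.05 over all genes tested. Of the variance of log2 CPM, 67.1% lay on a first principal component that separated HT55 from SW948 and 23.9% on the second. On the second component itraconazole replicate 3 of HT55 lay at 11.0, against 35.8 to 50.4 for the other itraconazole libraries and -19.2 to -17.8 for the DMSO libraries of that line. All 10 colorectal epithelial markers examined, among them EPCAM, CDH1, VIL1 and CDX2, had counts in every group, with summed levels of 6671 to 12000 CPM per library. The 11 stromal, immune and endothelial markers matched summed to 0.848 to 12.1 CPM, and CD3E and COL3A1 were at 0 throughout.

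Of the 9 genes, 4 passed the filter on low counts in HT55 and all 4 were called: 1 rose (MUC13) and 3 fell (AGR2, AGR3 and TFF3). In that comparison 54.0% of the 12133 genes tested were called, 27.5% as higher and 26.5% as lower. In SW948 6 of the 9 passed the filter and all 6 were called: 2 rose (MUC2 and MUC13) and 4 fell (AGR2, AGR3, TFF1 and TFF3). There 80.2% of 12505 genes were called, 38.9% as higher and 41.3% as lower. With backgrounds of this height a call by itself says little, so the size of each change was read against the spread of all genes. Leaving out the most extreme twentieth of genes at either end, log2 fold changes lay between -0.96 and 1.03 in HT55 and between -2.22 and 1.70 in SW948, with medians of -0.02 in both. AGR3 in HT55 and TFF1 in SW948 passed the filter only through their DMSO libraries, so their tests had to concern a fall. AGR3 in SW948 passed through its DMSO libraries too, as its itraconazole replicate 3 had 6 counts.

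**Figure D2:**
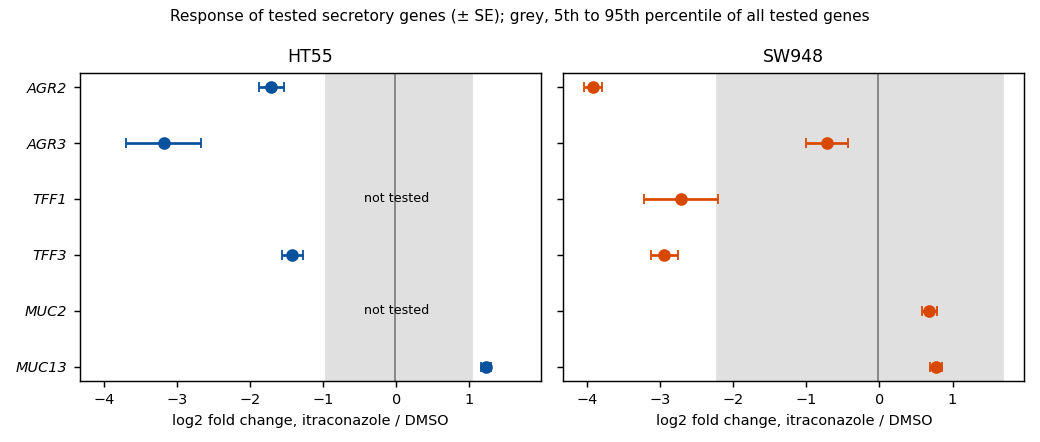
Log2 fold change of itraconazole over DMSO for each tested gene in HT55 and in SW948 (points, with SE as bars); the grey band spans all tested genes but the most extreme twentieth at either end, and the grey line is their median. AGR2, AGR3 and TFF3 lie left of the band in HT55 and MUC13 right of it, whereas in SW948 AGR2, TFF1 and TFF3 lie left of it and AGR3, MUC2 and MUC13 inside it.

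The transcription factors that head the secretory programme were barely detected. ATOH1 (chr4:94749904-94752115, plus strand, GRCh37), the basic helix-loop-helix factor that sets the secretory fate, had 0 counts in all 8 HT55 libraries. A count of 0 over a group allows a level of up to 0.0814 CPM in HT55 DMSO and 0.0845 CPM in HT55 itraconazole, for counting error only. In SW948 it had 1, 1, 0 and 1 counts with DMSO and 0 counts in the 4 itraconazole libraries, which allows up to 0.0870 CPM (two-sided exact permutation test p = 0.143, where 0.0286 is the smallest p that 4 against 4 can give). ATOH1 expression was therefore not measurable at this depth in either line.

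SPDEF (chr6:34505579-34524110, minus strand), an ETS factor of goblet cell maturation, had 0 counts in the 4 HT55 DMSO libraries and 1 count in total with itraconazole (exact permutation p = 1). In SW948 its counts were 8, 3, 1 and 9 with DMSO and 3, 3, 2 and 3 with itraconazole, and the ranges overlapped (exact permutation p = 0.343). Over the group, the 21 counts of untreated SW948 stand against 0 in untreated HT55, a mean CPM at least 5.23-fold higher when the floor of 3 counts over the group is taken for HT55.

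AGR2 and AGR3 encode related members of the protein disulfide isomerase family that reside in the endoplasmic reticulum, and AGR2 is needed for the production of MUC2 in the mouse gut. They are neighbours on chromosome 7, both on the minus strand, AGR2 at chr7:16831435-16873057 and AGR3 at chr7:16899036-16921611 (GRCh37), with 25978 bases between them. MUC13, a mucin anchored in the cell membrane, lies at chr3:124624289-124672663 on the minus strand. The promoter windows of these 3 genes, the neighbours that fell and the mucin that rose, are given from RefSeq, 250 bases before to 50 bases after the annotated start, read 5′ to 3′ on the gene's strand (GRCh38.p14, chr7:16804950-16805249 for AGR2, chr7:16881934-16882233 for AGR3 and chr3:124934702-124935001 for MUC13, all minus strand). The RefSeq starts need not be the outer ends of the GRCh37 gene intervals, on which the distance above rests. Capitals mark matches on either strand to any of 5 motifs that were searched.
AGR2: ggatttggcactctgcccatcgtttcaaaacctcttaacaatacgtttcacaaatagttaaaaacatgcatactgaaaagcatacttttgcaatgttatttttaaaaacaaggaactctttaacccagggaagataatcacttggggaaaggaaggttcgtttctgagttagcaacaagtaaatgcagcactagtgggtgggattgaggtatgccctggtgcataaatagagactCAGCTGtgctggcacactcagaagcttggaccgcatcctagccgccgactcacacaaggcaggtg
AGR3: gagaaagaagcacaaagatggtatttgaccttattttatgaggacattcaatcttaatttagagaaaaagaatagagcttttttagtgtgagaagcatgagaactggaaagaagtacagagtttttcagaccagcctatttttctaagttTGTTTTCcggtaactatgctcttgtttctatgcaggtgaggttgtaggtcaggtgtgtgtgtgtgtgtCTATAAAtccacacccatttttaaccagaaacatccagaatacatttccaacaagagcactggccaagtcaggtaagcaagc
MUC13: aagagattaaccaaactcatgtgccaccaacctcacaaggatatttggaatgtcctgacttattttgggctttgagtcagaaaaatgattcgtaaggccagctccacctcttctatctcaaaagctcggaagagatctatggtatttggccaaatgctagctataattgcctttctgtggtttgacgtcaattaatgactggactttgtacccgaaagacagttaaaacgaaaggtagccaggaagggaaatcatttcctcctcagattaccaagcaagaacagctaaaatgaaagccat

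The motifs searched on both strands were TATAAA (the core promoter box of that name, in 11.53% of all 35116 RefSeq promoter windows), TGTTTNC (forkhead type, 17.99%), CAGCTG (an E-box, 17.95%), ATCAAAG (TCF/LEF, 2.62%) and TTTATNG (CDX type, 9.73%). The AGR2 window held CAGCTG, starting 15 bases before the start. The AGR3 window held a TATA box that began 31 bases before the start and TGTTTTC at 100 bases before it. A CDX-type match, CTATAAA on the reverse strand, overlapped that TATA box. None of the 5 motifs was found in the MUC13 window, nor in that of SPDEF. Of the 7 genes with a window, 3 held the CDX-type motif (AGR3, MUC2 and REG4), 2 the TATA box and the forkhead motif (AGR3 and REG4), 2 the E-box (AGR2 and MUC2) and 1 the TCF/LEF motif (ATOH1). These are letter matches only, and AGR2 and AGR3 shared none of them.

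AGR2 had the lowest log2 fold change of the 6 genes tested in SW948. There it stood at 511, 481, 378 and 526 CPM with DMSO and at 29.1, 28.0, 34.2 and 37.0 CPM with itraconazole. In HT55 the DMSO libraries held 30.6, 30.8, 29.5 and 30.1 CPM and the itraconazole libraries 10.1, 12.9, 6.56 and 7.70 CPM. The groups did not overlap in either line, and the libraries of SW948 with itraconazole overlapped with those of untreated HT55. The means went from 474 ± 66.8 to 32.1 ± 4.27 CPM in SW948 (SD, n = 4), 14.8 times lower, and from 30.3 ± 0.609 to 9.30 ± 2.79 CPM in HT55 (SD, n = 4), 3.25 times lower.

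Only 92 of the 12505 genes tested in SW948 and 84 of the 12133 tested in HT55 had a lower fold change than AGR2. On the log2 scale the change was -3.92 ± 0.12 in SW948 (SE, edgeR, adjusted p = 2.07e-11) and -1.71 ± 0.17 in HT55 (SE, edgeR, adjusted p = 3.26e-05). The response of SW948 was the larger one, with a difference between the lines of -2.17 ± 0.21 on the log2 scale (SE, edgeR interaction, adjusted p = 1.26e-07). Of the 9 genes, 6 entered this interaction test and 4 were called, where 53.9% of 13249 genes were called in all, 24.8% with the more positive response in SW948 and 29.1% with the more negative. In bulk RNA, fewer cells that express a gene and less mRNA per cell cannot be told apart, here or for the genes that follow.

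AGR3 was measured on few reads, and its response in the lines was the reverse in size of that of AGR2. Its counts in HT55 were 17, 19, 16 and 9 with DMSO and 1, 3, 0 and 2 with itraconazole. The groups did not overlap. AGR3 passed the filter in HT55 only through its DMSO libraries, so the test had to concern a fall and its values are a description. The log2 change by edgeR was -3.18 ± 0.51 (SE, adjusted p = 0.000526), and 2 of the 12133 genes tested had a lower one. Without itraconazole replicate 3, the library at 0, the value was -2.70 and was still called.

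AGR3 in SW948 had 31, 23, 23 and 41 counts with DMSO and 15, 10, 6 and 22 with itraconazole. The ranges overlapped on the CPM scale, at 1.99 to 3.16 against 0.763 to 2.48 CPM. By edgeR the log2 change was -0.72 ± 0.29 (SE, adjusted p = 0.0353), and the call was lost with DESeq2 (adjusted p = 0.0554), in 1 edgeR fit on all 16 libraries (adjusted p = 0.0505) and on leaving out any of 5 single libraries. These were DMSO replicates 1 and 4 and itraconazole replicates 1, 2 and 3 of SW948, with edgeR adjusted p = 0.0626, 0.114, 0.0592, 0.0842 and 0.100. The responses of the lines differed by 2.50 ± 0.64 (log2, SE, edgeR interaction, adjusted p = 0.00284), with HT55 resting on few reads with itraconazole.

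MUC13 carried many more reads than MUC2 in both lines and rose in both. In HT55 it stood at 483, 467, 485 and 492 CPM with DMSO and at 1050, 1193, 1041 and 1245 CPM with itraconazole. In SW948 the values were 450, 458, 441 and 464 CPM with DMSO and 922, 703, 699 and 850 CPM with itraconazole. All itraconazole libraries lay above all DMSO libraries of their line.

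The MUC13 means were 482 ± 10.6 and 1132 ± 102 CPM in HT55 (SD, n = 4), and the log2 change by edgeR was 1.23 ± 0.07 (SE, adjusted p = 3.19e-06), exceeded by 448 genes. They were 453 ± 9.93 and 793 ± 111 CPM in SW948 (SD, n = 4), and the log2 change by edgeR was 0.77 ± 0.09 (SE, adjusted p = 1.60e-06), exceeded by 2336 genes. The rise was smaller in SW948 than in HT55 by 0.43 on the log2 scale (-0.43 ± 0.12, SE, edgeR interaction, adjusted p = 0.00585). On plain library totals, where the median of all genes moved from -0.02 to -0.18 in HT55 and to -0.35 in SW948, the MUC13 values were 1.06 and 0.45 and were still called.

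MUC2 (chr11:1074875-1104416, plus strand), the gel-forming mucin that makes up the colonic mucus, was in practice a gene of SW948. The 8 HT55 libraries held 2 to 6 counts each, 14 in total with DMSO and 13 with itraconazole (exact permutation p = 0.6). In SW948 it stood at 12.3, 13.7, 14.7 and 15.9 CPM with DMSO and at 21.3, 25.1, 23.9 and 22.8 CPM with itraconazole. Every itraconazole library of SW948 lay above every DMSO library, while AGR2 fell in the same libraries.

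The means of MUC2 in SW948 were 14.1 ± 1.55 and 23.3 ± 1.62 CPM (SD, n = 4), and the log2 change by edgeR was 0.68 ± 0.10 (SE, adjusted p = 3.11e-05). On plain library totals it was 0.35 (edgeR adjusted p = 0.00672), about as far above the shifted median of all genes. The difference between the responses of the lines was 0.77 ± 0.48 (log2, SE) and did not pass (edgeR interaction, adjusted p = 0.246), with HT55 resting on the few reads above. That p does not show equal responses.

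The trefoil peptides protect and repair the mucosa, and TFF3 is the one that goblet cells of the intestine secrete, whereas TFF1 is best known from the stomach. Their genes lie on chromosome 21, on the minus strand, TFF3 at chr21:43731777-43735519 and TFF1 at chr21:43782391-43786644, with 46871 bases between them. TFF3 stood at 51.9, 54.4, 48.7 and 52.3 CPM in HT55 with DMSO and at 24.8, 19.6, 19.4 and 13.8 CPM with itraconazole. The SW948 values were 17.2, 12.8, 20.6 and 17.5 CPM with DMSO and 2.50, 2.06, 2.03 and 2.37 CPM with itraconazole. The groups stayed apart in both lines, and untreated SW948 overlapped with treated HT55.

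For TFF3 the HT55 means were 51.8 ± 2.36 CPM with DMSO and 19.4 ± 4.50 CPM with itraconazole (SD, n = 4), 2.67 times lower, a log2 change of -1.42 ± 0.14 by edgeR (SE, adjusted p = 3.00e-05). Those of SW948 were 17.0 ± 3.24 and 2.24 ± 0.231 CPM (SD, n = 4), 7.59 times lower, a log2 change of -2.94 ± 0.18 by edgeR (SE, adjusted p = 3.87e-09). As for AGR2, the fall was larger in SW948 (difference -1.49 ± 0.25 on the log2 scale, SE, edgeR interaction, adjusted p = 5.57e-05).

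TFF1 was low in both lines. Its counts in SW948 were 37, 15, 18 and 22 with DMSO and 4, 5, 1 and 0 with itraconazole, without overlap, and its log2 change by edgeR was -2.71 ± 0.51 (SE, adjusted p = 0.000209). TFF1 passed the filter there only through its DMSO libraries, so that test had to concern a fall. In HT55 it was below the filter, with 5, 3, 7 and 7 counts with DMSO and 2, 1, 1 and 0 with itraconazole. Those HT55 groups did not overlap either (22 against 4 counts in total, two-sided exact permutation p = 0.0286, the smallest possible and not adjusted for the 7 such tests made here). The difference between the responses of the lines was -0.39 ± 1.35 (log2, SE, edgeR interaction, adjusted p = 0.827), an error too wide to place one line before the other.

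REG4 (chr1:120336640-120354203, minus strand) encodes a secreted lectin of the regenerating family that goblet and enteroendocrine cells make. It had 13, 6, 10 and 5 counts in SW948 with DMSO and 1, 0, 1 and 2 with itraconazole, so the groups were apart (34 against 4 counts, exact permutation p = 0.0286, again the smallest possible). In HT55 it had 1, 2, 1 and 1 counts with DMSO and 1, 0, 0 and 2 with itraconazole (exact permutation p = 0.343). The mean CPM of untreated SW948 was 5.32 times that of untreated HT55, on 34 and 5 reads.

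The untreated lines thus differed in which secretory genes they carried. Of the 9 genes, 6 were tested between untreated HT55 and untreated SW948 and 5 were called, where 84.2% of 12820 genes were called, 41.6% as higher in HT55 and 42.6% as lower. MUC2 and TFF1, with 2 to 7 counts in each HT55 library, entered this comparison only through SW948, so the direction of those 2 calls was fixed by the filter and their values are a description. AGR2 was 15.7 times higher in SW948 (log2 difference HT55 minus SW948 of -3.97 ± 0.09, SE, edgeR adjusted p = 9.57e-23) and MUC2 37.3 times higher (-5.18 ± 0.22, SE, edgeR adjusted p = 1.15e-16). TFF1 was higher in SW948 too (-1.68 ± 0.34, SE, edgeR adjusted p = 7.96e-05).

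TFF3 went the other way and was 3.04 times higher in HT55 (1.59 ± 0.09, SE, edgeR adjusted p = 1.15e-14). AGR3 was lower in HT55 by a small margin (-0.58 ± 0.23, SE, edgeR adjusted p = 0.0242), a call lost with DESeq2 (adjusted p = 0.0680) and without DMSO replicate 4 of HT55 or of SW948 (edgeR adjusted p = 0.103 and 0.111). MUC13 stood near the same level in both, with a log2 difference of 0.083 ± 0.039 (SE) that did not pass (edgeR adjusted p = 0.0518) and that turned to -0.11 on plain library totals, where it passed (edgeR adjusted p = 0.00862). After itraconazole the AGR2 means were 3.45 times apart and the TFF3 means 8.65 times, still with AGR2 higher in SW948 and TFF3 higher in HT55.

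Levels of different genes were compared per kilobase of exon (RPKM), with MUC2 left out because its annotated transcripts in GRCh37 are incomplete. In untreated SW948 AGR2 came first at 171 ± 24.2 RPKM, ahead of MUC13 at 130 ± 2.84, TFF3 at 18.5 ± 3.52, TFF1 at 3.88 ± 1.45 and AGR3 at 2.13 ± 0.443 (SD, n = 4). SPDEF and REG4 followed at 0.223 and 0.210 RPKM with overlapping ranges, and ATOH1 came last. Untreated HT55 had MUC13 first at 138 ± 3.03 RPKM, then TFF3 at 56.2 ± 2.56 and AGR2 at 10.9 ± 0.220 (SD, n = 4), and AGR3 and TFF1 came next with overlapping ranges at 1.42 and 1.23 RPKM.

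With itraconazole MUC13 was first in both lines, at 324 ± 29.3 RPKM in HT55 and 227 ± 31.7 RPKM in SW948 (SD, n = 4). AGR2 thereby dropped behind MUC13 in SW948, at 11.6 ± 1.55 RPKM, and stayed behind TFF3 in HT55, at 3.36 ± 1.01 against 21.0 ± 4.88 RPKM (SD, n = 4). AGR3, TFF1 and the genes after them had overlapping ranges with at least 1 neighbour in both treated groups.

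**Figure D3:**
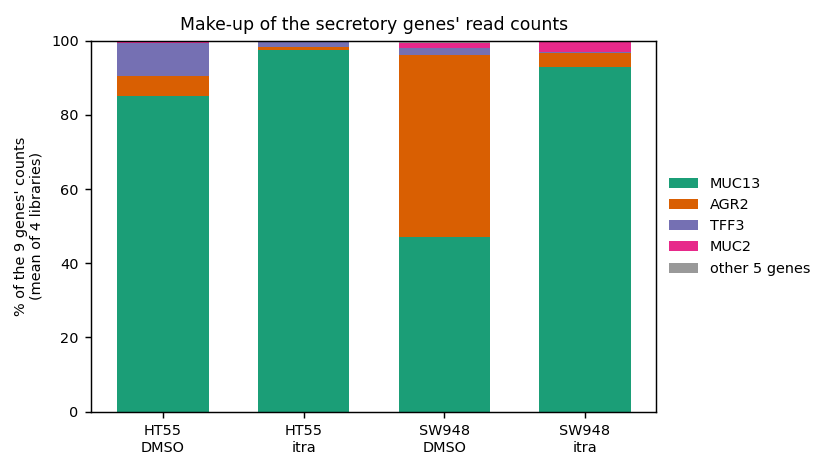
Share of each gene in the summed read counts of the 9 genes (percent, mean of 4 libraries; stacked bars from 0 to 100) in each group. AGR2 took 49.0% in untreated SW948 and 3.80% with itraconazole, while MUC13 went from 47.2% to 92.9%; in HT55 MUC13 held 85.0% and then 97.4%.

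The make-up of the reads from these 9 genes shifted accordingly. AGR2 took 49.0% ± 3.41 of them in untreated SW948 and 3.80% ± 0.643 with itraconazole (SD, n = 4), and MUC13 went from 47.2% ± 2.97 to 92.9% ± 1.04. In HT55 MUC13 held 85.0% ± 0.650 and then 97.4% ± 0.638, and TFF3 went from 9.15% ± 0.496 to 1.70% ± 0.496 (SD, n = 4). The summed level of the 9 genes was 566 ± 9.04 and 1162 ± 99.7 CPM in HT55 and 964 ± 74.2 and 853 ± 110 CPM in SW948 (SD, n = 4), where the SW948 ranges of 859 to 1029 and 760 to 977 CPM overlapped. These shares follow counts and so favour long transcripts.

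Companion lists of the same biology were read against the backgrounds given above. The list of 15 transcription factors that act in or on the secretory lineage included HES1, an opponent of that fate. In HT55 4 of them rose, 3 fell and 3 did not pass (median log2 fold change 0.01). In SW948 6 rose, 4 fell and 2 did not pass (median 0.12). HES1, the Notch target that holds ATOH1 down, rose in both lines, from 24.7 ± 1.18 to 81.2 ± 30.5 CPM in HT55 (edgeR log2 change 1.71, adjusted p = 0.000204) and from 74.6 ± 2.25 to 110 ± 31.2 CPM in SW948 (edgeR log2 change 0.53, adjusted p = 0.00631, SD, n = 4). CREB3L4, a membrane-bound transcription factor, fell by 0.90 and 1.47 on the log2 scale. FOXA1 was tested in SW948 alone and rose by 1.07 (log2), and HES6 fell by 0.89 (log2) in HT55 with a value of -0.13 that did not pass in SW948 (edgeR adjusted p = 0.561).

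Of 13 further mucins, 5 were tested in HT55 and 1 rose, and 3 were tested in SW948, of which 2 rose and 1 fell. The 1 that fell, MUC5AC, had means of 1.10 and 0.319 CPM in SW948 and entered the test through its DMSO libraries. MUC20, a membrane mucin, rose by 1.45 (log2) in HT55 and 0.27 (log2) in SW948, and MUC3A, another, rose by 0.88 (log2) in SW948 with -0.04 in HT55 (edgeR adjusted p = 0.692). Among 17 matched further goblet cell products, 3 rose, 1 fell and 2 did not pass in HT55 (median 0.08), and 2 rose, 3 fell and 1 did not pass in SW948 (median -0.58).

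ERN2, the stress sensor of the endoplasmic reticulum that mucus-making epithelia carry, followed the course of AGR2 in SW948. It went from 58.8 ± 5.37 to 3.99 ± 0.988 CPM there (SD, n = 4), a log2 change of -3.91 ± 0.13 by edgeR (SE, adjusted p = 3.13e-11), and it was at 0.277 and 0.0843 CPM in HT55, below the filter. BCAS1 rose by 2.64 (log2) in HT55 and 0.83 (log2) in SW948, KLK1, a kallikrein protease, by 0.33 and 1.52, and the chloride importer SLC12A2 fell by 1.38 (log2) in SW948 with -0.18 in HT55 (edgeR adjusted p = 0.358).

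The wider protein disulfide isomerase family, which AGR2 and AGR3 belong to, did not move as AGR2 did. Of 18 tested genes 9 rose, 3 fell and 6 did not pass in HT55 (median 0.26), and 7 rose, 6 fell and 5 did not pass in SW948 (median -0.00). The lowest values in the family were those of DNAJC10, a disulfide reductase, at -0.95 in HT55 and -1.74 in SW948. TMX2 and TMX4, membrane-bound thioredoxin-like proteins, fell in both lines, by 0.37 and 0.34 in HT55 and by 1.30 and 1.04 in SW948 on the log2 scale, while PDIA5 rose by 0.81 and 1.04.

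Mucins carry dense O-linked sugars, and of 20 tested enzymes of that pathway 7 rose, 6 fell and 7 did not pass in HT55 (median 0.08), against 4, 13 and 3 in SW948 (median -0.72). ST6GALNAC1, which caps the first sugar with sialic acid, fell in both lines. It went from 6.63 to 3.30 CPM in HT55 and from 13.5 to 0.999 CPM in SW948, a log2 change of -3.72 in the latter. In SW948 it passed the filter only through its DMSO libraries. FUT2, the fucosyltransferase of secretor status, fell by 1.84 (log2) in SW948 with -0.06 in HT55 (edgeR adjusted p = 0.612). GALNT3, which adds the first sugar, rose by 1.06 and 1.89, and GCNT3, which branches the chains, by 1.76 and 1.25 (log2, HT55 and SW948).

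**Figure D4:**
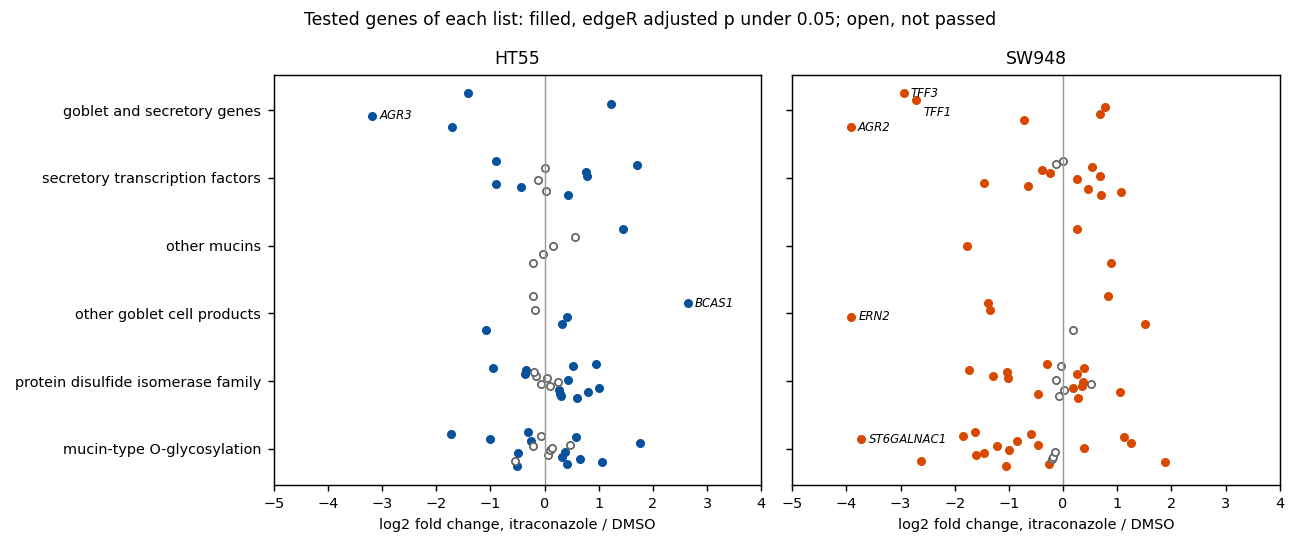
Log2 fold change of itraconazole over DMSO for each tested gene of 6 lists in HT55 and SW948; each point is 1 gene, filled where edgeR's adjusted p was under 0.05 and open otherwise. AGR2, ERN2 and ST6GALNAC1 lie furthest left in SW948, from -3.92 to -3.72, and the disulfide isomerase family spans -1.74 to 1.04 there.

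Markers of other cells of the gut epithelium moved in the same libraries. In HT55, beside the fall of AGR2 and TFF3, the 12 absorptive colonocyte markers summed to 743 to 847 CPM with DMSO and 7054 to 9314 CPM with itraconazole. Of 6 tested there 5 rose, where 27.5% of all genes were called higher. Most of the HT55 sum was SLC26A3, the chloride and bicarbonate exchanger of colonocytes, at 548 ± 45.4 and 7427 ± 897 CPM (SD, n = 4), while MS4A12 was at 0 in both groups. In SW948 the same list went from 668 to 692 CPM to 805 to 964 CPM, and CA1, CA4 and GUCA2B were at 0. Most of the SW948 sum was KRT20, at 660 ± 17.7 and 874 ± 81.2 CPM (SD, n = 4). Of 5 tested there 2 were higher and 1 lower (SLC26A2, log2 change -1.77), where 38.9% and 41.3% of all genes were. The 8 Paneth markers summed to 289 to 351 CPM in SW948 with DMSO and to 95.7 to 125 CPM with itraconazole. Nearly all of that was LYZ, which went from 318 ± 25.9 to 109 ± 11.8 CPM (SD, n = 4), and REG3A and ITLN2 were at 0. Of the 2 Paneth markers tested in SW948, 1 was lower (LYZ) and 1 higher. The higher one was MMP7, from 0.312 to 2.96 CPM, on few reads with DMSO. It passed the filter through its itraconazole libraries, so that rise is a description. In HT55 the Paneth list stayed at or under 5.32 CPM in every library. The part of these markers in the results above was not tested.

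The 5 genes whose course over the 16 libraries was most like that of AGR2 were SLC43A1, LCN2, WDR72, SLC46A3 and ACSS1, among 9225 genes compared. The measure was the root mean square difference of log2 CPM, each gene centred on its own mean, and it ran from 0.556 for SLC43A1 to 1.12 for ACSS1. LCN2, the secreted siderophore-binding protein lipocalin 2, had means of 79.7 and 37.9 CPM in HT55 and 718 and 45.8 CPM in SW948, DMSO before itraconazole. Of the other 8 secretory genes, MUC13 and TFF3 were high enough to be compared, and they stood at 2.53 and 2.63, in places 8079 and 8455. The measure takes in the difference between the lines as well as the response to itraconazole. TFF3 fell in both lines as AGR2 did, but it was higher in untreated HT55 and AGR2 in untreated SW948.

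**Figure D5:**
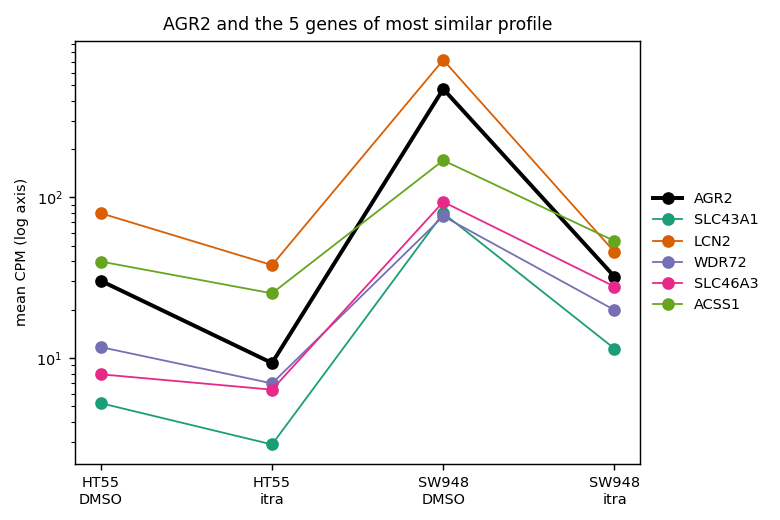
Mean CPM (log axis) of AGR2 and of the 5 genes most like it in the 4 groups; each line joins 1 gene's group means. All 6 are highest in untreated SW948 and lowest in HT55 with itraconazole, and LCN2 runs above AGR2 from 718 down to 37.9 CPM.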

How the data were processed

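RNA sequencing was measured in 16 libraries, 4 in each of 4 groups. The authors made TruSeq libraries, sequenced single-end reads of 50 bases and aligned them to hg19. The submitters' processing notes name TopHat, HTSeq and DESeq, and their versions, the annotation release and the strand setting are not given in the sources used here. The deposited values are raw counts of reads per Ensembl gene, not normalised by the authors. Reads with more than one alignment, 22.0% to 27.9% of a library, were set apart from genes, as were reads in no gene (3.79% to 4.94%) and reads in overlapping genes (1.23% to 1.48%), and none entered library sizes or tests. No 50-base stretch of the 9 genes' transcripts was found in another annotated gene's transcript.

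Symbols and GRCh37 coordinates came from a GENCODE annotation. Counts were tested in R 4.3.3 by edgeR 4.0.16, quasi-likelihood test (TMM, filterByExpr, no covariate, Benjamini-Hochberg over all genes tested, threshold 0.05). Each line was fitted on its own 8 libraries, the untreated lines on 8 and the interaction on all 16. The SE was derived from the fold change and its F statistic. CPM used TMM factors over all 16 libraries, except in the two-sided exact permutation tests of genes below the filter, which used plain totals. Floors of 3 counts over a group and permutation tests cover counting error and the spread of these samples only, since reads carried no molecular identifiers. The edgeR tests were checked on simulated counts with the same spread for every gene and few changed genes, a simpler setting than these data.

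The 9 genes are all named. By rule, up to 4 genes of each companion list are named. They are those with the largest change, an adjusted p under 0.05 in that line and a mean of at least 10 CPM in any group. Other genes are named beside them where a list was uneven or at 0. The 5 genes most like AGR2 needed a mean log2 CPM of at least 3 (prior count 2). The genes, lists and tests were chosen with earlier results of these data known. Alternatives were DESeq2 size factors, plain totals, the DESeq2 1.42.0 Wald test, other filters and thresholds, a replicate block, 1 fit on all libraries, and leaving out each library.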

Additional observations from a re-analysis of the deposited data

Results flagged for a closer look

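The responses to itraconazole of 4 genes differed between the lines by the edgeR interaction test, each given as the SW948 response minus the HT55 response on the log2 scale. For AGR2 the difference was -2.17, for TFF3 -1.49 and for MUC13 -0.43, the first 2 with a larger fall and MUC13 with a smaller rise in SW948. For AGR3 it was 2.50, with the larger fall in HT55, on 6 reads in the itraconazole libraries of that line. Without itraconazole replicate 3 of HT55, the library nearest to its controls, these values were -2.33, -1.51, -0.47 and 2.02, and all 4 were still called. By Dixon's test, which compares the gap beside an extreme library with the range of its 4, 1 library stood apart in 2 of the 32 sets of a gene and a group with any spread, and chance gives about 1 in 20. Both rest on single reads: REG4 in HT55 with DMSO, where replicate 2 had 2 counts and the others 1 each (gap over range 0.875), and SPDEF in HT55 with itraconazole, where replicate 1 had the 1 count of the group (gap over range 1).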

How the results depend on the processing

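Of 389 values of the 9 genes under the alternatives, 368 kept their direction and their side of the threshold, 15 lost a call, 3 gained one and 3 changed sign. AGR2 and TFF3 kept every call under all of them. With a minimum absolute log2 fold change of 1, SW948 kept 3 of its 6 called genes (AGR2, TFF1 and TFF3), and over all genes 1169 instead of 6553 were called in HT55 and 4001 instead of 10030 in SW948. With at least 10 counts in every library, 2 genes were called between the untreated lines (AGR2 and TFF3), since fewer were tested. The MUC13 difference between the untreated lines turned to -0.11 on plain library totals, and passed with DESeq2 size factors (adjusted p = 0.0391), with DESeq2 (adjusted p = 0.0264) and in edgeR without DMSO replicate 2 of HT55 (adjusted p = 0.0339). The TFF1 interaction ran from -0.998 to 0.129 on leaving out single libraries. On plain totals 2280 of 6989 calls in HT55 were higher, against 3340 of 6553, and 3147 of 9973 in SW948, against 4865 of 10030. The shares also moved between the untreated lines (4324 of 10862, against 5339 of 10796) and in the interaction (2295 of 7224, against 3292 of 7141). Replicate numbers did not pair the samples: same-numbered libraries deviated together with correlations of -0.045 to 0.144, and only number 3 correlated best with its own number in both lines. With the replicate block 4, 6, 5 and 4 of the genes were called in HT55, SW948, the untreated lines and the interaction, so no call changed, and over all genes 6300, 9973, 10827 and 7036 were. Exact tests without 1 library cannot go below 0.0571. Depth limits ATOH1, SPDEF, REG4 and, in HT55, MUC2 and TFF1 to counts.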

Other observations

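Enteroendocrine and tuft cell markers were also examined. Over all genes tested, 27.5% were called higher and 26.5% lower in HT55, and 38.9% higher and 41.3% lower in SW948. The counts below, of few genes each, are to be read beside those shares. Of 13 enteroendocrine markers, none passed the filter in HT55 and 2 fell in SW948. SCG5, a chaperone of hormone processing, went from 15.0 ± 1.31 to 12.2 ± 1.34 CPM (SD, n = 4, log2 fold change -0.33, edgeR adjusted p = 0.0154). CHGB went from 1.29 to 0.322 CPM, on few reads, and entered its test mainly through its DMSO libraries. PYY, below the filter, went the other way in SW948, from 0.0192 to 0.940 CPM. CHGA, GCG and SST were at 0 in all groups. Of the tuft markers, 2 of 3 tested fell in HT55 and 2 of 4 rose in SW948, where ALOX5 went from 13.8 ± 1.42 to 23.2 ± 1.28 CPM (SD, n = 4, log2 fold change 0.72, edgeR adjusted p = 1.34e-05). Among the 10 colorectal epithelial markers 5 were higher and 1 lower with itraconazole in HT55, against 5 higher and 5 lower in SW948. The homeobox factor CDX2 rose by 0.43 (log2) in HT55 and fell by 0.88 (log2) in SW948, and KRT19 fell by 0.19 and rose by 1.34. Of the stromal, immune and endothelial markers, COL1A1 alone was tested, in SW948, with 3.16 ± 0.815 and 10.1 ± 1.03 CPM (SD, n = 4). The lysozyme gene LYZ, itself a Paneth marker, rose in HT55 from 0.852 to 2.23 CPM and fell in SW948, with a difference between the responses of -2.94 ± 0.33 (log2, SE, edgeR interaction, adjusted p = 5.73e-07). Its HT55 reads were few, and it passed the filter there mainly through its itraconazole libraries, so that rise is a description.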
